A study of Mus musculus with 20 samples.

Results

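The complement genes of the heart apex were examined in mice with and without cardiac deposits of an amyloidogenic human light chain. The set comprised 37 genes that encode components of the classical, lectin and alternative pathways, the central and terminal components, receptors and regulators, and all 37 were found by gene name among the 25308 genes of the table. Of these, 36 had enough reads for the test, and C8b did not. The mice fell into 3 groups. AL mice (9 mice) were λS-DH mice, which carry the cDNA of the human λS light chain at the Ig kappa locus, and had cardiac amyloid deposits. The study induced such deposits by an intravenous injection of the recombinant λS variable domain (rλS-VL), as sonicated fibrils or in soluble form, and rarely found them without it. LS mice (4 mice) were λS-DH mice that were not induced and had no deposits. Ctrl mice (7 mice) were age-matched DH-LMP2A mice (DH) without the human gene. All 3 groups have the DH-LMP2A background, whose plasma cells lack Ig heavy chains, and Ctrl mice make mouse light chains of their own. LS mice were not induced, so between AL and LS mice the injection cannot be told apart from the deposits. Neither the age, the sex nor the form of the injected protein is given for single mice in the labels.

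Complement is a cascade of serum and tissue proteins. C1q with C1r and C1s (classical pathway), or lectins with the MASP proteases (lectin pathway), lead to cleavage of C4 and C2, and factor B with factor D and properdin form the alternative pathway. All 3 routes cleave C3, and the terminal components C5 to C9 assemble into a membrane pore, whereas receptors on myeloid cells bind the fragments and regulators on cells or in plasma limit the cascade. Most plasma complement is made by the liver, while C1q and properdin come mainly from macrophages and other myeloid cells, and fibroblasts, endothelial and epithelial-like cells can make C3, factor B, C1r, C1s and C1 inhibitor.

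The 20 libraries were sequenced in 2 runs. The first run held 15 mice (AL1 to AL7, LS1 to LS4 and Ctrl1 to Ctrl4) with 43993277 to 62668146 counts per mouse, and the second run held 5 mice (AL8, AL9 and Ctrl5 to Ctrl7) with 7867642 to 11794615 counts. A count of 3, taken as the floor of detection for counting error only, was worth 0.0474 to 0.0748 CPM (counts scaled to a common library size) in the first run and 0.231 to 0.356 CPM in the second. Summed CPM of 6 cardiomyocyte markers lay between 39728 and 67675, so the defining markers of heart muscle were high in every mouse. Igkc, the constant region at the targeted locus, had 0 to 6 counts in AL and LS mice and 0 to 274 in Ctrl mice, and was at 0 in Ctrl5. Xist, which is transcribed in female cells, was at 185 to 400 CPM in AL2 to AL4, LS2, LS3 and Ctrl1 to Ctrl3. It was at 0 to 6.35 CPM in the other mice, which include all 5 of the second run. By this gene, sex was not balanced between the runs. AL9 stood apart from the other AL mice for several complement genes, and 5 mice (LS1, LS3, Ctrl1, Ctrl3 and Ctrl4) stood apart by the liver gene Alb, with 93.4 to 215 CPM where no other mouse passed 21.7 CPM. Values with and without these mice are given where a result rests on them. The amyloid scores of the AL hearts, which the paper reports as ranging from low to high, were not set beside the values here.

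Complement genes moved in both directions between AL and Ctrl mice. In the fit with group and run (edgeR), 11 of 36 members were called, at an FDR under 0.05 over all 14477 tested genes and an absolute log2FC of at least 0.58 (log2FC is the log2 of the fold change, positive where AL was higher). Of all tested genes, 7.81% were called. The 6 higher members were C2, C4b, Masp1, Cfb, C3 and Serping1 (background 4.1% of genes higher), and the 5 lower members were Masp2, Hc, C8a, C8g and C9 (background 3.71% lower). By DESeq2, 9 members were higher (5.02% of genes), with Cfp, Itgb2 and Cd46 besides these 6, and 3 were lower (3.48%), since Hc (FDR = 0.069) and C8a (FDR = 0.14) were not called. With the first run alone, 4 were higher (3.81% of genes), C2, Cfb, C3 and Cd46, and the same 5 were lower (4% of genes). An unadjusted p under 0.05 was found for 20 members, against 38.8% of all genes. No member separated all AL from all Ctrl mice, as 0.484% of genes did upwards and 1.51% downwards. Between AL and LS mice, 7 of 36 members were called, all higher in AL, namely C2, C4b, Cfb, C3, C5ar2, Itgb2 and Cd46. In this comparison 8.9% of all genes were called, 5.86% higher and 3.03% lower, and 16 members against 36.8% of all genes had an unadjusted p under 0.05. All LS mice were in the first run, and in that run alone 8 members were called higher (7.94% of genes), with Cfp besides these 7, and 2 lower (3.53%), Hc and Masp2. AL mice enter both comparisons, so the lists are not independent, and in bulk tissue fewer cells of a type cannot be told apart from less RNA per cell.

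By role, the median log2FC of AL against Ctrl was 0.51 for the 7 classical pathway genes and -0.04 for the 5 lectin pathway genes. It was 1.40 for the 3 alternative pathway genes, -0.86 for the 7 tested central and terminal components, 0.45 for the 6 receptors and 0.19 for the 8 regulators, against 0.01 for all tested genes. All 7 classical genes, all 3 alternative genes and all 6 receptors had a log2FC above 0. Against LS the medians in the same order were 0.55, 0.22, 1.93, -0.46, 0.67 and 0.13, with 0.01 over all genes. The plot of differences shows this split, with small errors for well expressed genes and wide ones for the low terminal components.

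**Figure D1:**
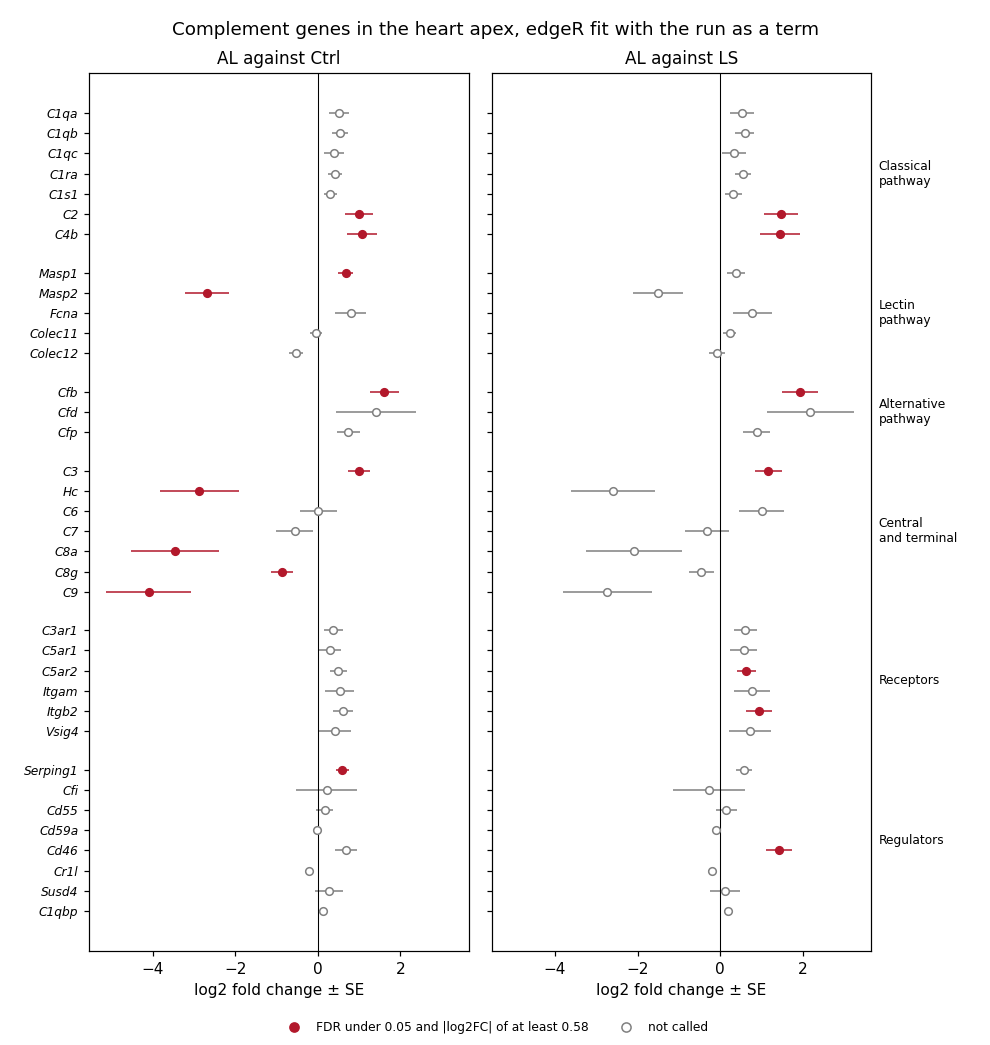
Log2 fold change of the 36 tested complement genes (horizontal axis, ± SE) in AL against Ctrl mice (left) and AL against LS mice (right), grouped by role, with called genes filled in red. Cfb had the largest called rise in both panels (1.60 and 1.93), and the called falls, down to -4.09 for C9, are in the left panel alone.

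C3 was the most abundant member for its length in AL and Ctrl mice, with a median of 77.2 and 53.7 CPM per kb of exon. In LS mice its median was 43.1 CPM per kb, after Cd59a (45.9) and Serping1 (45.4). C3, on which the pathways converge, ranged from 267 CPM in AL2 to 1583 in AL9, with a median of 397 CPM in the 9 AL mice. Its levels were 205, 215, 229 and 230 CPM in the LS mice and 197 to 382 CPM (median 276) in the Ctrl mice. Every AL mouse lay above every LS mouse, and 6 of 9 lay above every Ctrl mouse. The log2FC was 1.00 ± 0.26 (SE) against Ctrl (FDR = 0.010) and 1.16 ± 0.33 against LS (FDR = 0.017). In the first run alone it was 0.74 against Ctrl (FDR = 0.031), and without AL9 it was 0.59 (FDR = 0.044). Against LS, the call was lost without LS2 (log2FC 1.12, FDR = 0.051).

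Cfb, which encodes factor B, the protease subunit of the alternative pathway convertase, had the largest called rise. Its level was 6.52 CPM in AL8, 11.6 to 19.1 CPM in AL1 to AL7 and 58.5 CPM in AL9. LS mice had 2.08 to 6.07 CPM, and Ctrl mice 4.17 to 10.6 CPM with Ctrl1 highest. All 9 AL mice were above all LS mice, and 8 of 9 were above all Ctrl mice, with AL8 the exception. The log2FC was 1.60 ± 0.35 against Ctrl (FDR = 0.0030) and 1.93 ± 0.45 against LS (FDR = 0.0051). Within the first run, in which AL and Ctrl levels did not overlap, it was 1.18 against Ctrl (FDR = 0.0070), and without AL9 it was 1.04 over both runs. Over all genes, 5.68% were higher without overlap in this run. Cfb kept its call against Ctrl and against LS without each mouse in turn. It lies at chr17:34856374-34862518 (GRCm38), on the minus strand, 85 bases from C2, and the annotated gene Gm20547 overlaps both on the same strand, so reads of the 3 could have been divided between them.

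C2 and C4b encode the components that the classical and lectin pathways cleave to form their C3 convertase. C2 ranged from 2.73 (AL2) to 13.2 CPM (AL9) in AL mice (median 5.61), from 1.68 to 3.117 CPM in LS mice and from 1.89 to 6.84 CPM in Ctrl mice. In 4 of 9 AL mice it was above all Ctrl mice, and in 7 of 9 above all LS mice. The log2FC was 1.00 ± 0.35 against Ctrl (FDR = 0.039) and 1.47 ± 0.42 against LS (FDR = 0.018). C4b ranged from 25.5 (AL2) to 102 CPM (AL7) in 8 AL mice and was 355 CPM in AL9, against 20.4 to 35.6 CPM in LS mice and 21.5 to 64.9 CPM in Ctrl mice. Its log2FC was 1.07 ± 0.37 against Ctrl (FDR = 0.041) and 1.45 ± 0.48 against LS (FDR = 0.035).

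These calls were close to the threshold. Without AL9 the log2FC against Ctrl was 0.46 for C4b (FDR = 0.24) and 0.77 for C2 (FDR = 0.14). For C4b the call against Ctrl also ended without AL1, AL4, AL5, AL7 or any of Ctrl3 to Ctrl7 (log2FC up to 1.07, FDR from 0.053), and for C2 without AL3, AL4, AL5, Ctrl1, Ctrl3, Ctrl4, Ctrl5 or Ctrl6 (log2FC up to 0.98, FDR from 0.059). Against LS, C2 lost its call without LS2 or LS4 (log2FC 1.31 and 1.43, FDR = 0.066 and 0.052), and C4b without AL1, AL7 or any LS mouse (log2FC 1.32 to 1.60, FDR up to 0.099). In the first run alone C2 was 1.02 (FDR = 0.049) and C4b 0.59 (FDR = 0.19) against Ctrl. C4b has a near-identical copy, C4a (log2FC -0.31 against Ctrl, FDR = 0.70), so how reads were divided between the copies is uncertain.

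**Figure D2:**
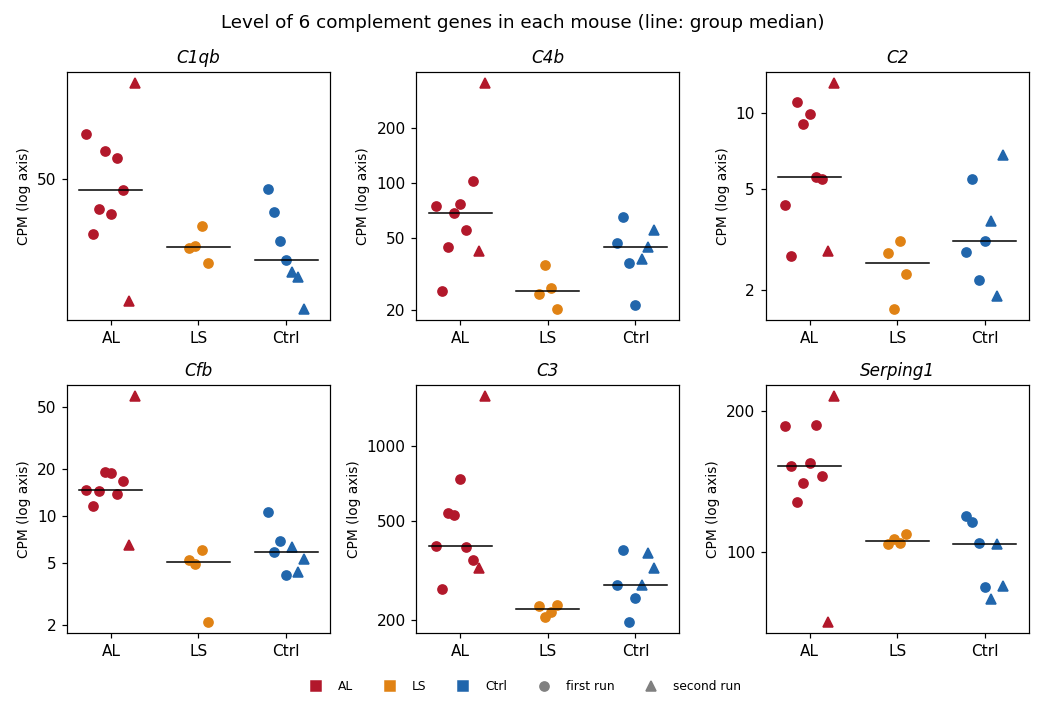
Level of 6 complement genes in each mouse, in CPM on log axes, with AL, LS and Ctrl mice in columns, circles for the first run, triangles for the second and a line at each group median. AL9 is the highest mouse in every panel (1583 CPM for C3 and 58.5 CPM for Cfb), and AL8, the other AL mouse of the second run, lies at 6.52 CPM for Cfb and 71.1 CPM for Serping1, among or below the Ctrl mice.

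The promoter of C3 is shown because C3 led the set by level in AL and Ctrl mice and rose in AL. Among the 250 bases before its RefSeq start (GRCm38.p6), a C/EBP motif (TTGCNNAA, capitals; C/EBP factors are known activators of acute-phase genes) starts at position -45 relative to the start. This motif is present, on either strand, in 9.56% of the 32851 promoter windows of the same length, and in those of C1s1, C3, C5ar2 and C9 among the 28 members with an entry.
C3 (chr17:57228137-57228386, minus strand): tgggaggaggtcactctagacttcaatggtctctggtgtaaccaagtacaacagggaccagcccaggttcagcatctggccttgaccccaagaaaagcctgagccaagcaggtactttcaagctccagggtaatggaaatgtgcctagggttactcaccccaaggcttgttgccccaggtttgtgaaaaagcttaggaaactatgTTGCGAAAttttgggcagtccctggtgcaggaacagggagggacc
The match is a description of the sequence and does not show a bound site.

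The summed level of 6 mesothelium markers (Msln, Upk3b, Upk1b, Krt19, Krt8 and Wt1), genes of the epithelial layer that covers the heart, was set beside these members. Of the 6 markers, 4 were called higher in AL against Ctrl and 4 against LS, and the median log2FC was 1.73 and 1.81. Their sum was 17.2 to 65.5 CPM in AL1 to AL8 and 261 CPM in AL9, against 7.34 to 23.7 CPM in LS mice and 14.4 to 33.8 CPM in Ctrl mice. Msln alone reached 116 CPM in AL9 and 3.59 to 19.8 CPM in the other AL mice. AL9 ranked first of the 9 AL mice for the marker sum, C3, Cfb, C2 and C4b, and AL2 ranked last for the sum, C3, C2 and C4b. AL5 and AL3, with the next highest sums after AL9 (59.3 and 65.5 CPM), also had the next highest C3 (735 and 540 CPM) and, of the mice below AL9, the highest C2 (9.92 and 11.1 CPM). Other ranks differed. AL3, second for the sum, was 6th of 9 for Cfb and 7th for C4b, AL7, 7th for the sum, was second for C4b (102 CPM), and Ctrl1, 6th of the 7 Ctrl mice for the sum, had the highest Cfb of that group (10.6 CPM).

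With the mean log2 level of these markers as a covariate, chosen after seeing the data, none of the 6 higher members kept its call against Ctrl. C3 was at 0.14 (FDR = 0.75), C2 at -0.08 (FDR = 0.91), C4b at 0.16 (FDR = 0.85), Serping1 at 0.37 (FDR = 0.25), Cfb at 0.79 (FDR = 0.22) and Masp1 at 0.70 (FDR = 0.079). Against LS, Cd46 kept its call (1.52, FDR = 0.029), and Cfb was at 1.09 (FDR = 0.16). The markers differ between the groups themselves, so such a fit also removes part of the difference between groups, and their part in the result was not tested further.

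**Figure D3:**
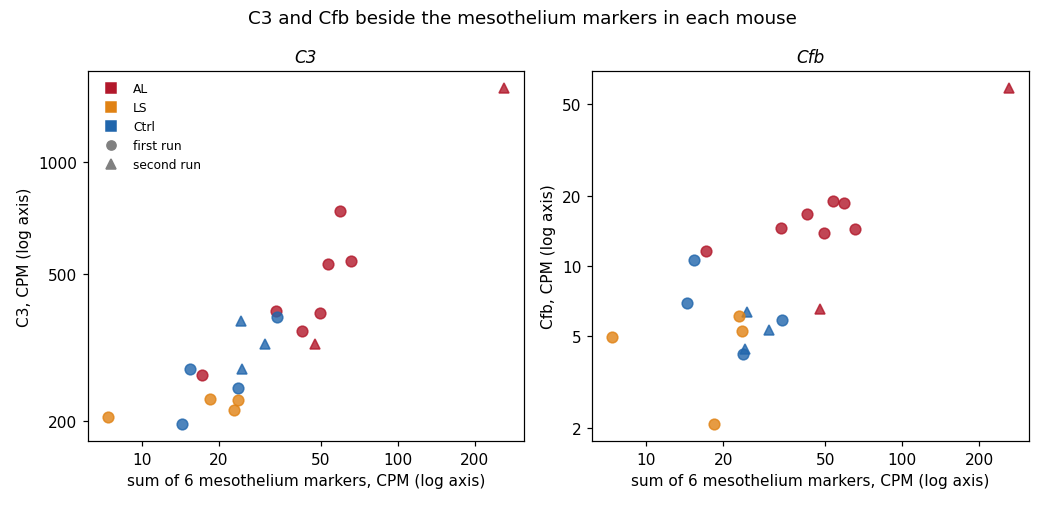
C3 (left) and Cfb (right) of each mouse in CPM against the summed CPM of 6 mesothelium markers, all on log axes, with colours for AL, LS and Ctrl mice and triangles for the second run. AL9 lies alone at the upper right (261 CPM of markers with 1583 CPM of C3), and AL2, at 17.2 CPM of markers, has 267 CPM of C3 within the range of the Ctrl mice but 11.6 CPM of Cfb above all of them.

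C1q, the recognition molecule of the classical pathway, is encoded by C1qa, C1qb and C1qc, which lie side by side at chr4:136880129-136898803 (GRCm38) on the minus strand. None of the 3 was called. C1qa was 15.3 (AL8) to 91.4 CPM (AL9) in AL mice with a median of 48.05, against 34.9 to 40.2 CPM in LS and 23.0 to 49.9 CPM in Ctrl mice. C1qb was 25.6 to 84.9 CPM in AL mice with a median of 47.2, against 31.6 to 38.6 CPM in LS and 24.5 to 47.3 CPM in Ctrl mice. C1qc was 13.9 to 41.6 CPM in 8 AL mice and 82.6 CPM in AL9, against 29.98 to 31.5 CPM in LS and 19.1 to 37.8 CPM in Ctrl mice. The groups overlapped for each gene. The log2FC against Ctrl was 0.51 ± 0.24 for C1qa (FDR = 0.12), 0.54 ± 0.19 for C1qb (FDR = 0.040, under the fold threshold) and 0.39 ± 0.24 for C1qc (FDR = 0.25), and against LS it was 0.51, 0.59 and 0.33 (FDR = 0.21, 0.070 and 0.44). In the first run alone it was 0.26, 0.34 and 0.06 against Ctrl (FDR = 0.19, 0.090 and 0.73). Against LS in that run it was 0.43, 0.52 and 0.21 (FDR = 0.034, 0.013 and 0.15). In the second run, with AL8 and AL9, it was 1.14, 1.05 and 1.20 against Ctrl (FDR = 0.43, 0.35 and 0.41). The difference between runs did not pass for these genes (FDR = 0.50, 0.49 and 0.34).

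C1q is also a marker of macrophages, and 12 other macrophage markers (Adgre1, Csf1r, Cd68, Cd163, Mrc1, Lyve1, Timd4, Folr2, Mertk, Cx3cr1, Ccr2 and Fcgr1) were therefore set beside it. Against Ctrl, 2 of the 12 were called higher and 1 lower (median log2FC 0.11), and against LS 1 was called higher (median 0.11). Their sum was 73.3 to 294 CPM in AL, 188 to 237 CPM in LS and 107 to 317 CPM in Ctrl mice. The ratio of the summed C1q genes to this sum, examined after the values were seen and given without a test, was 0.661 to 0.928 in AL mice (median 0.770), 0.416 to 0.538 in LS mice (median 0.523) and 0.389 to 0.692 in Ctrl mice (median 0.547). AL and LS mice did not overlap in this ratio, and AL and Ctrl mice overlapped slightly. With the mean of the macrophage markers as a covariate, also chosen after seeing the data, C1qb was at 0.38 against Ctrl (FDR = 0.0096) and 0.38 against LS (FDR = 0.033), below the fold threshold, while C3, Cfb and C4b kept their calls in both comparisons.

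**Figure D4:**
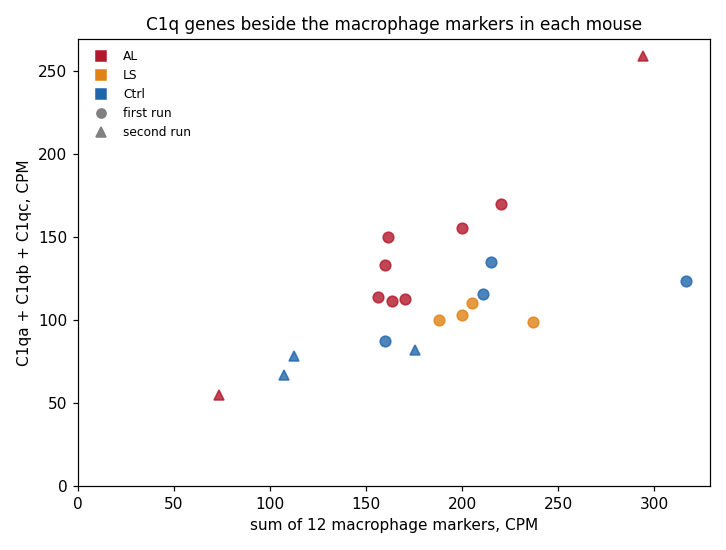
Summed CPM of C1qa, C1qb and C1qc (vertical axis) against the summed CPM of 12 macrophage markers (horizontal axis) in each mouse, coloured by group, with triangles for the second run. AL mice lie along the upper edge of the points, with ratios from 0.661 to 0.928, and LS mice at 0.416 to 0.538. These ratios depend on which markers are summed.

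The proteases of the C1 complex were not called. C1ra was at 23.1 to 67.6 CPM in AL, 22.6 to 28.6 CPM in LS and 20.7 to 33.0 CPM in Ctrl mice, with 7 of 9 AL mice above all Ctrl mice and a log2FC of 0.41 ± 0.16 (FDR = 0.068). C1s1 was at 42.8 to 106 CPM in AL, 36.7 to 52.7 CPM in LS and 35.3 to 65.2 CPM in Ctrl mice (log2FC 0.31 ± 0.17, FDR = 0.19). Both have near-identical copies, C1rb and C1s2, so their values are uncertain to the extent that reads were shared.

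Among the lectin pathway genes, the proteases Masp1 and Masp2 moved in opposite directions against Ctrl. Masp1, whose products cleave C2 and the other MASP protease, was 13.1 to 25.6 CPM in 8 AL mice and 37.9 CPM in AL9, against 11.98 to 17.1 CPM in LS and 9.22 to 17.1 CPM in Ctrl mice. Its log2FC was 0.68 ± 0.18 against Ctrl (FDR = 0.011) and 0.37 ± 0.22 against LS (FDR = 0.23), and without AL9 it was 0.54 against Ctrl (FDR = 0.035), under the fold threshold. Its call was also lost in the first run alone (0.57, FDR = 0.066) and with ComBat-seq (0.65, FDR = 0.074). Masp2, the C4-cleaving protease and mostly a liver gene, was at 0 to 0.201 CPM in AL mice (0 to 10 counts), 0.0770 to 0.489 CPM in LS mice and 0 to 1.12 CPM in Ctrl mice, with Ctrl5 at 0. The log2FC was -2.69 ± 0.54 against Ctrl (FDR = 0.0018), and in the first run all AL mice were below all Ctrl mice, as were 8.66% of all genes. Against LS it was -1.51 over all mice (FDR = 0.075) and -1.54 in the first run (FDR = 0.037). Unlike Hc, C8a, C8b and C9, Masp2 was also measured at 0.996 and 0.538 CPM (10 and 7 counts) in Ctrl6 and Ctrl7, in which Alb had 1 count each. Without the 5 mice of high Alb its log2FC was -2.34 (FDR = 0.092).

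The pattern-binding lectins were not called. Fcna (ficolin A) was 1.07 to 7.92 CPM in 8 AL mice and 15.9 CPM in AL9, against 1.23 to 4.99 CPM in Ctrl mice (log2FC 0.79 ± 0.38, FDR = 0.13). Colec11 (collectin-11) differed by -0.04 ± 0.14 against Ctrl (FDR = 0.86). Colec12, a membrane scavenger receptor, was 26.7 to 33.0 CPM in 8 AL mice and 11.3 CPM in AL8, against 23.6 to 37.1 CPM in LS and 28.6 to 47.1 CPM in Ctrl mice. Its log2FC of -0.53 ± 0.17 against Ctrl (FDR = 0.028) did not reach the fold threshold.

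The other alternative pathway genes, Cfp and Cfd, were not called. Cfp, the stabilizing factor properdin, was 2.84 (AL8) to 16.7 CPM (AL7) in AL mice with a median of 10.2, against 5.55 to 6.12 CPM in LS and 3.05 to 9.38 CPM in Ctrl mice. Its log2FC was 0.74 ± 0.28 against Ctrl (FDR = 0.053) and 0.88 ± 0.33 against LS (FDR = 0.062). For Cfp AL and LS mice of the first run did not overlap, and it was called there (0.82, FDR = 0.019). Cfd (factor D, the adipocyte protease adipsin) was 0 to 3.70 CPM in AL mice, 0.116 to 0.428 CPM in LS and 0 to 1.28 CPM in Ctrl mice, and its log2FC of 1.40 ± 0.97 against Ctrl had a wide error (FDR = 0.30). The highest Cfd was in AL1, which also had the highest summed adipocyte markers, at 47.97 CPM, with no other mouse above 5.02 CPM.

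The terminal components Hc (C5), C8a, C8b, C8g and C9, which form the membrane attack complex with C6 and C7, were listed as mostly liver genes. Of them, 4 fell against Ctrl. The log2FC was -2.87 ± 0.95 for Hc (FDR = 0.033), -3.46 ± 1.07 for C8a (FDR = 0.023), -0.86 ± 0.27 for C8g (FDR = 0.023) and -4.09 ± 1.03 for C9 (FDR = 0.0097). None was called against LS, where the log2FC was -2.60, -2.09, -0.46 and -2.73 (FDR = 0.071, 0.20, 0.28 and 0.079), although Hc was called lower against LS in the first run alone (-2.90, FDR = 0.038). C8b did not pass the filter on low counts. These differences rest on few reads. C9 had 0 counts in 7 of 9 AL mice and in all 3 Ctrl mice of the second run, and at most 47 counts in any mouse.

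The levels were set beside Alb in each mouse. In the 5 mice over 50 CPM of Alb, the summed counts of Hc, C8a, C8b and C9 were 226 in Ctrl1 (6632 counts of Alb), 103 in Ctrl3 (8618), 102 in Ctrl4 (5166), 110 in LS1 (4801) and 112 in LS3 (4584). This was 11.95 to 34.1 counts per 1000 counts of Alb. Mice with intermediate Alb had intermediate sums, with 43 in AL6 (1079 counts of Alb), 36 in Ctrl2 (1106) and 10 in LS4 (453). The other 8 AL mice had 0 to 7 counts of the 4 genes with 1 to 85 counts of Alb, LS2 had 2 with 140, and Ctrl5 to Ctrl7 had 0 or 1 count of the 4 genes with 1 count of Alb each. At such low counts the ratio to Alb varied, from 0 in AL4 to 105 in AL1 and 113 in AL2 per 1000 counts of Alb. AL9 had 6 counts of the 4 genes (0.516 CPM) with 1 count of Alb. C8g, which is not in this sum, followed Alb less closely. It was 1.42 to 2.03 CPM in the 5 mice, 0.394 to 1.54 CPM in the other LS and Ctrl mice and 0.237 to 1.12 CPM in AL mice. C8g had 51 counts in LS2 (140 counts of Alb), 58 in AL4 (5) and 71 in AL1 (57).

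With log2 CPM of Alb as a covariate, Hc was at 0.91 (FDR = 0.47), C8a at 0.92 (FDR = 0.55) and C9 at 0.17 (FDR = 0.88) against Ctrl, and C8g at -0.68 (FDR = 0.23). Without the 5 mice of high Alb, Hc was at -0.10 (FDR = 0.97) and C8g at -0.44 (FDR = 0.54), and C8a and C9 no longer had enough counts to be tested. All 12 liver markers of the list, Alb among them, were called lower in AL against Ctrl and 10 of 12 against LS. Without Ctrl1 the call of C8a ended (-2.33, FDR = 0.13), without Ctrl4 that of C8g (-0.76, FDR = 0.068), and without AL1, AL3, AL4, AL5, AL7, Ctrl1, Ctrl3 or Ctrl4 that of Hc (-2.74 to -2.52, FDR up to 0.074).

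**Figure D5:**
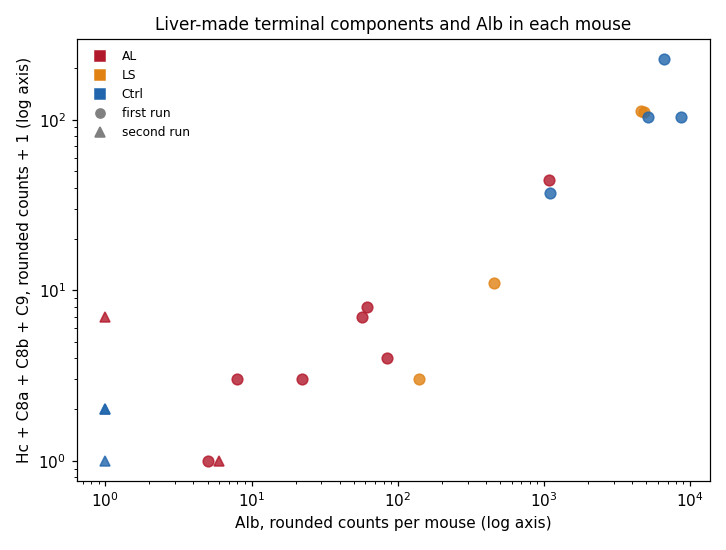
Summed rounded counts of Hc, C8a, C8b and C9 plus 1 (vertical axis) against the rounded counts of Alb (horizontal axis) in each mouse, both on log axes, with colours for the groups, triangles for the second run and Ctrl6 and Ctrl7 drawn on the same point. The 5 mice with the most Alb (4584 to 8618 counts) have 102 to 226 counts of the 4 genes, and AL6 and Ctrl2 lie together at 43 and 36 counts.

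The promoters of Hc, C8a, C8b and C9 are shown because their reads appeared together in the same mice. Capitals mark the letters GTTAAT on either strand (the core of the site of HNF1, a factor of liver genes) in Hc, C8a and C8b, the C/EBP motif in C9, and, upstream in C8a, the GAS motif TTCNNNGAA. The HNF1 half-site is present in 6.43% of the 32851 windows and in those of C1ra, C7, C8a, C8b, Cfp and Hc among the members, and the GAS motif in 7.02% of windows. C8a and C8b are neighbours on chromosome 4, on opposite strands.
Hc (chr2:35061413-35061662, minus strand): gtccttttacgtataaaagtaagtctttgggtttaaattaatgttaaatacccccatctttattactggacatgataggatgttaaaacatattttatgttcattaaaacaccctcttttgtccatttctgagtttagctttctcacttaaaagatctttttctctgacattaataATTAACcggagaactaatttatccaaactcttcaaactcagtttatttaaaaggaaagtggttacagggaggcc
C8a (chr4:104876399-104876648, minus strand): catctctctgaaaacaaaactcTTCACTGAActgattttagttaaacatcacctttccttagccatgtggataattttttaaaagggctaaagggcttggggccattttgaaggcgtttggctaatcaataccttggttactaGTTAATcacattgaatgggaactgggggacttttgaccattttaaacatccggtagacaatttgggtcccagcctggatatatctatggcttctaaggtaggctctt
C8b (chr4:104766067-104766316, plus strand): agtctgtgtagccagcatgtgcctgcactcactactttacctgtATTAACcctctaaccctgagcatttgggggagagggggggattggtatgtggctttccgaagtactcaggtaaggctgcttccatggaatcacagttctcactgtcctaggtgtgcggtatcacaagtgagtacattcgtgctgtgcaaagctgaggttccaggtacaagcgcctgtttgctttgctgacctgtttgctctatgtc
C9 (chr15:6445096-6445345, plus strand): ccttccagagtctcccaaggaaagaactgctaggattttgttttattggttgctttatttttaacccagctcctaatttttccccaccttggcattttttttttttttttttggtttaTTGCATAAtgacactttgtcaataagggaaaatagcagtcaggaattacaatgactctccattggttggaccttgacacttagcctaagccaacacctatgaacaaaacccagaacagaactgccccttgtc
The letters alone do not tell whether a factor was bound in heart or liver.

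Several other members that the liver makes in quantity had overlapping levels in mice of high and low Alb. In the 5 mice of high Alb, C3 was 197 to 276 CPM, Cfb 4.17 to 10.6 CPM, C4b 21.5 to 46.7 CPM and Serping1 84.5 to 119 CPM. In the other 6 LS and Ctrl mice the same genes were at 205 to 382 CPM, 2.08 to 6.30 CPM, 20.4 to 64.9 CPM and 79.5 to 116 CPM. The highest AL mice were above both ranges for all 4 genes. With Alb as a covariate Cfb (1.90, FDR = 0.012), Masp1 (0.91, FDR = 0.011) and Serping1 (0.62, FDR = 0.042) kept their calls against Ctrl, whereas C3 was at 0.89 (FDR = 0.083), C4b at 1.16 (FDR = 0.11) and C2 at 0.62 (FDR = 0.32). Without the 5 mice, Cfb (2.07, FDR = 0.026) and Masp1 (0.95, FDR = 0.039) were called, and C3 was at 0.99 (FDR = 0.13) with fewer mice.

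The remaining terminal components, C6 and C7, were not called. C6 was 0.219 to 1.72 CPM in AL, 0.0945 to 0.652 CPM in LS and 0.407 to 1.28 CPM in Ctrl mice (log2FC 0.01 ± 0.44 against Ctrl, FDR = 0.99). C7 was 2.41 to 24.1 CPM in AL, 4.75 to 15.9 CPM in LS and 4.31 to 36.8 CPM in Ctrl mice, so that levels within each group spanned several fold, and its log2FC was -0.56 ± 0.45 (FDR = 0.38).

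The 6 receptors had a log2FC above 0 in both comparisons, and none was called against Ctrl. Itgb2, the beta chain that leukocyte integrins share, was 7.35 to 14.8 CPM in 8 AL mice and 23.8 CPM in AL9. It was 5.99, 6.16, 6.24 and 6.62 CPM in LS mice and 2.84 to 10.8 CPM in Ctrl mice, so that all AL mice were above all LS mice but not above all Ctrl mice. Its log2FC was 0.94 ± 0.31 against LS (FDR = 0.035) and 0.61 ± 0.25 against Ctrl (FDR = 0.076). The call against LS ended without AL1, AL7 or any LS mouse (log2FC 0.87 to 0.96, FDR up to 0.084). Within the first run Itgb2 was at 0.78 against LS (FDR = 0.0021) and 0.19 against Ctrl (FDR = 0.37), and all 4 LS mice were below all 4 Ctrl mice of that run.

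C5ar2, the second receptor for the C5a fragment, was 0.830 to 1.94 CPM in AL, 0.715 to 1.18 CPM in LS and 0.598 to 1.22 CPM in Ctrl mice. Its log2FC of 0.63 ± 0.22 against LS was called (FDR = 0.046) and 0.50 ± 0.20 against Ctrl was not (FDR = 0.067). This call ended in 12 of the 20 fits with a mouse left out, those without AL1, AL4, AL6, AL7, LS1 to LS4, Ctrl1, Ctrl2, Ctrl4 or Ctrl7 (log2FC 0.51 to 0.75, FDR up to 0.16). For the other receptors the log2FC against Ctrl and LS was 0.37 and 0.60 for C3ar1 (C3a receptor), and 0.30 and 0.57 for C5ar1 (C5a receptor). It was 0.52 and 0.76 for Itgam (the alpha chain of complement receptor 3) and 0.40 and 0.72 for Vsig4 (a macrophage receptor for C3b), with FDR from 0.12 to 0.49. Itgam was highest in AL7 (38.4 CPM) and AL9 (33.3 CPM) and 7.23 to 12.6 CPM in the other AL mice, against 3.77 to 15.7 CPM in Ctrl mice, and the annotated gene Gm49368 overlaps it on the same strand. Summed neutrophil markers, which bear on Itgam, Itgb2 and C5ar1, were highest in AL8 (34.5 CPM), AL9 (21.9 CPM) and Ctrl4 (20.9 CPM), and C5ar1 was highest of all 20 mice in Ctrl4 (9.58 CPM) and lowest in AL8 (1.54 CPM). The part of these cells in the receptor levels was not tested.

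Among the regulators, Serping1 rose against Ctrl. It encodes C1 inhibitor, which inactivates C1r, C1s and the MASP proteases. Its level was 128 to 215 CPM in 8 AL mice and 71.1 CPM in AL8, against 104 to 109 CPM in LS mice and 79.5 to 119 CPM in Ctrl mice. AL8 was below all LS and Ctrl mice, and the other 8 AL mice were above all of them. The log2FC was 0.59 ± 0.16 against Ctrl (FDR = 0.010) and 0.57 ± 0.19 against LS (FDR = 0.036, just under the fold threshold). Without AL9 it was 0.39 against Ctrl, and the fold threshold was also missed without AL1, AL6, Ctrl4 or Ctrl5 (at most 0.57). In the first run alone the AL and Ctrl levels did not overlap, with a log2FC of 0.56 (FDR = 0.0036), under the fold threshold. Of 36 members, 2 (Cfb and Serping1) were higher without overlap in that run, near the share of all genes (5.68%). The summed level of 6 fibroblast markers (Pdgfra, Col1a1, Dcn, Lum, Tcf21 and Dpt) was 296 CPM in AL8, the lowest of all 20 mice, and 802 to 1373 CPM in the other AL mice. LS mice had 930 to 1072 CPM. Ctrl mice had 713 to 1010.01 CPM in the first run and 428 to 690 CPM in the second, the run of AL8. None of the 6 was called in either comparison (median log2FC 0.29 against Ctrl and 0.10 against LS), and their part in the level of Serping1 was not tested.

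Cd46, a membrane cofactor for the cleavage of C3b and C4b, was called against LS and not against Ctrl. The annotated gene Gm37132 overlaps Cd46 on the same strand, so reads could have been divided between them. Cd46 was 2.15 to 3.92 CPM in AL mice and 0.736, 0.874, 1.08 and 1.28 CPM in LS mice, with no overlap. In Ctrl mice it was 0.773 to 2.34 CPM in the first run and 2.79 to 3.84 CPM in the second. The log2FC was 1.41 ± 0.31 against LS (FDR = 0.0040), and the call was kept without each mouse in turn. Against Ctrl it was 0.67 ± 0.27 over both runs (FDR = 0.071), 1.09 in the first run (FDR = 0.010) and -0.30 in the second (FDR = 0.72), and the difference between runs did not pass (FDR = 0.16). Besides Cd46, Cfb, C3 and Itgb2 were higher in all AL than in all LS mice, 4 members in all, against 5.24% of all tested genes. Within the first run 7 members were, against 8.94%.

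Cfi, the protease factor I that cleaves C3b and C4b, had a difference that depended on the run. In the first run it was 0.372 to 0.974 CPM in AL mice and 0.266 to 1.72 CPM in Ctrl mice (log2FC -0.87 ± 0.60, FDR = 0.30). In the second it had 4 counts in AL8 and 38 in AL9 against 1, 0 and 0 counts in Ctrl5 to Ctrl7. The interaction was 6.71 ± 1.31 on the log2 scale (FDR = 0.029), and Cfi was the only member of 33 tested for which it passed, against 0.701% of 13835 genes. Since it rests on few counts in 5 shallow libraries, its size is uncertain. In the 5 mice of high Alb Cfi was 0.895 to 1.77 CPM, in the other 6 LS and Ctrl mice 0 to 0.266 CPM, and in AL mice 0.372 to 3.27 CPM. All AL mice thus lay above the LS and Ctrl mice of low Alb, and without the mice of high Alb the log2FC against Ctrl was 2.63 ± 0.76 (FDR = 0.052).

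The remaining regulators were not called. Cr1l (Crry, the main membrane regulator of C3 on mouse cells) was 31.2 to 60.4 CPM in AL, 59.4 to 67.9 CPM in LS and 46.3 to 64.4 CPM in Ctrl mice, and its log2FC of -0.23 ± 0.07 against Ctrl (FDR = 0.025) was far below the fold threshold. Cd59a, which blocks the membrane attack complex, was 57.3 to 85.7 CPM in AL and 63.9 to 81.2 CPM in Ctrl mice (log2FC -0.03 ± 0.06, FDR = 0.80), and was the third member by length-scaled level in Ctrl mice, at 42.4 CPM per kb, after C3 and Serping1 (44.9). Cd55, which speeds the decay of convertases, differed by 0.17 ± 0.21 (FDR = 0.60), Susd4 by 0.27 ± 0.33 (FDR = 0.59) and C1qbp, a mitochondrial protein first found by its binding to C1q, by 0.12 ± 0.08 (FDR = 0.29). Cd55 and Cd59a have related gene copies, Cd55b and Cd59b.

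LS and Ctrl mice were compared to ask whether the circulating light chain alone went with other levels of these genes. No member of 36 was called by edgeR, as for 0.0207% of all genes, and none of the 34 with an adjusted p by DESeq2. An unadjusted p under 0.05 was found for 2 of them, Cd46 (log2FC -0.74 ± 0.34) and Colec12 (-0.46 ± 0.22), against 5.94% of all genes. The log2FC lay above 0 for 8 of 36 members, and the median was -0.23, against 0.00032 for all genes. C3 differed by -0.16 ± 0.34, Cfb by -0.33 ± 0.44, C1qb by -0.05 ± 0.24 and Serping1 by 0.02 ± 0.20. With 4 LS mice, all in the first run, differences of this size were within the error. In that run Masp2 and Itgb2 were lower in all LS than in all Ctrl mice, as were 2.22% of all genes.

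The second run alone, with 2 AL and 3 Ctrl mice, gave no call among 27 members tested (0.072% of genes higher and 0.056% lower by edgeR), and 7 had an unadjusted p under 0.05, against 14.1% of all genes. AL8 and AL9, the AL mice of this run, were at opposite ends of the AL group for C1qa, Cfb and Serping1. Without both, 7 members were called against Ctrl, Cfb (1.19, FDR = 0.0050), C3 (0.74, FDR = 0.024) and Cd46 (1.09, FDR = 0.0072) higher and Masp2, Hc, C8a and C9 lower (3.71% of genes higher and 3.94% lower).

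Other genes of the complement system, 21 by a fixed list, were largely liver genes, and all 21 were in the table and 16 were tested. Against Ctrl, 1 was called higher (4.1% of all tested genes) and 5 lower (3.71%). The higher gene was Itgax, the alpha chain of complement receptor 4, at 1.12 to 6.11 CPM in AL, 0.308 to 1.10 CPM in LS and 0.468 to 1.69 CPM in Ctrl mice (log2FC 1.47 ± 0.35, FDR = 0.0055; 1.81 ± 0.44 against LS, FDR = 0.0071). It was above all LS mice in every AL mouse, and above all Ctrl mice in 7 of 9. The lower genes were C4bp, Mbl1, Mbl2, Cpn2 and Crp, with log2FC from -4.82 (Mbl2) to -2.13 (Cpn2). Each of these 5 genes had its highest counts in the 5 mice of high Alb. Mbl2 had 47 to 76 counts there against 0 to 11 in the other mice, and Cpn2 29 to 50 against 0 to 26. Against LS, Itgax was higher and C1rb, Mbl1, Mbl2, Cpn2 and Crp were lower, where 5.86% of all tested genes were called higher and 3.03% lower. C1rb did not follow Alb, with 28 counts in LS2, 19 in LS4 and 0 in LS1, LS3 and Ctrl1. It had 13 counts in Ctrl3, 18 in Ctrl4 and 0 to 2 in AL mice, so its call rests on LS2 and LS4. Clu (clusterin, an inhibitor of the terminal complex) differed by 0.42 ± 0.12 against Ctrl (FDR = 0.016), under the fold threshold.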

How the data were processed

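Polyadenylated RNA of the heart apex was made into stranded libraries by the authors, who sequenced both ends in 2 runs and ran the nf-core RNA-seq workflow (STAR on GRCm38, then Salmon). The deposited values are estimated counts per gene (25308 genes), not normalized or adjusted for the run, of which 14.2% were not whole. All 20 sample columns were used and rounded to whole counts. Groups, numbers and runs come from the labels.

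Genes were filtered by filterByExpr (minimum count 10), scaled by TMM and tested with glmQLFit and glmQLFTest of edgeR 4.0.16 in R 4.3.3, with group and run as terms for all 3 groups together. The study adjusted for the run with ComBat, which was an alternative here. FDR is the Benjamini-Hochberg adjusted p over 14477 genes, and p-values are two-sided. SE comes from the F statistic, and CPM is TMM-normalized. The interaction with the run was fitted on AL and Ctrl mice. Nothing states whether mice shared a litter or cage, so p-values cover the spread between these samples. Library correlations of log2 CPM were 0.893 to 0.98, and no libraries were identical. The fit was tested on simulated counts.

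Members, lists and tests were chosen with earlier results of these data known. The rule for named genes was that every member is accounted for, with values by mouse for called members, the C1q genes, C3 and liver-made members, while of the other complement genes the called ones are named. Clu was named after its values were seen, and 1 gene family of that list is not reported here. Alternatives, 12 planned and 3 added after seeing the data, were RLE factors, no filter, DESeq2 1.42.0, ComBat-seq (sva 3.50.0), no run term, each run alone, only the 2 groups compared, the replicate number as a block, Alb or Xist as a covariate, omission of 5 mice over 50 CPM of Alb, each mouse left out, and the added mesothelium covariate, macrophage covariate and omission of AL8 and AL9. Counts that differed between runs in depth give the second run less precision.

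Coordinates and overlaps come from GENCODE M21 (GRCm38), which matched 24657 gene IDs (97.4%), and promoter windows (250 bases) from RefSeq (GRCm38.p6), with 28 members found. Both strands were searched for TTCNNNGAA (GAS), TTGCNNAA (C/EBP), GTTAAT (HNF1 half-site), TATAAA, and the longer ISRE, NF-kB and HNF1 motifs. No promoter was found for Cfb, C2, C4b, Serping1, C1qa, Cfi, Itgb2, Masp1 and Colec12. Plots were made in Python 3.11.15 (matplotlib 3.10.9).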

Additional observations from a re-analysis of the deposited data

Results flagged for a closer look

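Within the groups of AL and LS or Ctrl mice, 15 of 81 combinations of group and member held a value far from its nearest neighbour (Dixon's criterion at 95%). Only combinations with a mean of at least 1 CPM were examined. The criterion's rate of about 1 in 20 holds for independent, normally distributed values, which CPM of the same mice are not, so no comparison with chance is made. AL9 held 11 of the 15 values. Its levels were the highest of the AL mice for C1qc (82.6 CPM, next 41.6), C1ra (67.6, next 40.4), C1s1 (106, next 63.6), C4b (355, next 102), Masp1 (37.9, next 25.6), Fcna (15.9, next 7.92), Cfb (58.5, next 19.1), C3 (1583, next 735), Itgb2 (23.8, next 14.8) and Vsig4 (6.20, next 2.21), and the lowest for Cd59a (57.3 CPM, next 73.2). AL9 belonged to the second, shallower run and also had the highest summed mesothelium and macrophage markers of the AL mice (261 and 294 CPM), whose part in these levels was not tested.

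AL8, the other AL mouse of that run, had the lowest Colec12 (11.3 CPM, next 26.7) and the lowest C5ar1 (1.54 CPM, next 5.11) of the AL mice, and the lowest macrophage and fibroblast sums (73.3 CPM, next 156, and 296 CPM, next 802). Ctrl1 had the lowest Colec12 (28.6 CPM, next 39.4) and the highest Cfb (10.6 CPM, next 6.91) of the Ctrl mice. The difference of AL against Ctrl itself differed between the runs for Cfi, by 6.71 on the log2 scale (second run minus first).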

How the results depend on the processing

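Against Ctrl, 11 members were called, and 7.81% of all genes. The count, with the share of all genes called in the same fit, was 4 with ComBat-seq (5.18%), 7 without the run term (6.13%), 6 with only the 2 groups compared (6.22%), 5 with Alb as a covariate (6.2%), 2 without the 5 mice over 50 CPM of Alb (3.39%), 0 in the second run alone (0.128%, with 7 of 27 members at an unadjusted p under 0.05), and, added after seeing the data, 4 with the mesothelium covariate (3.69%) and 7 without AL8 and AL9 (7.64%). By DESeq2 it was 12 (8.5%), 9 higher and 3 lower. With Xist as a covariate it was 9 (7.09%) against Ctrl and 8 (8.48%) against LS. Against LS, 7 were called (8.9%), with 11 by DESeq2 (10.3%), 4 with ComBat-seq (4.42%), 3 with Alb as a covariate (7.05%), 3 without the 5 mice (3.19%) and 1 with the mesothelium covariate (4.28%). In the first run alone 10 were called against LS (11.5%), 8 higher and 2 lower. With each mouse left out the counts were 6 (without Ctrl4) to 15 (without AL8) against Ctrl and 4 (without AL1 or any LS mouse) to 11 (without AL8) against LS. No member was called between LS and Ctrl under any alternative.

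The direction turned for Hc (0.91), C8a (0.92) and C9 (0.17) with Alb as a covariate and for C2 (-0.078) with the mesothelium covariate, all against Ctrl. C8a and C9 could not be tested without the 5 mice. Cfb kept its direction under all alternatives and its call in all but the second run alone and the mesothelium covariate. The replicate numbers gave no clear pairing of the mice. Correlations of deviations between equally numbered mice were -0.154 to 0.0594 between AL and Ctrl, -0.0745 to 0.231 between AL and LS and 0.0582 to 0.220 between LS and Ctrl. With the replicate number as a block 5 members were called against Ctrl (5.88% of genes), Cfb higher and Masp2, Hc, C8a and C9 lower. The second run had 7867642 to 11794615 counts per mouse, which limits low members such as Masp2 and Cfi there.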
